A study of Mus musculus with 17 samples.

Results

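The genes described here are 34 components of the skeletal muscle contractile apparatus, measured in mouse brown adipose tissue (BAT). They were taken from the deposited count table by gene symbol: the thin and thick filaments, the Z-disc, the calcium handling system, and muscle enzymes of energy and oxygen supply. All 34 symbols were among the 21982 genes of the table, and all 34 were among the 12486 genes that passed the filter on low counts. The members were listed by gene name, and the list was drawn up with earlier results of these data known.

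BAT was collected from C57BL/6 mice that were wild type or Nocturnin (Noct) -/- littermates; Nocturnin is a circadian enzyme of the CCR4 deadenylase-like family. Mice were held at 22 °C or moved to 6 °C for 4 h, singly housed and without food in both conditions. Group WR is wild type at 22 °C (n = 4, of which 3 female), WC wild type at 6 °C (n = 5, 4 female), KR knockout at 22 °C (n = 4, 1 female) and KC knockout at 6 °C (n = 4, 1 female). Each of the 17 libraries is one mRNA-seq sample of homogenised tissue, and sex is unequal between genotypes. Ages are given as 11.14 to 23.57 with no unit in the sample labels, while the study design states 10 to 20 weeks.

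A sarcomere is the repeating contractile unit of striated muscle. Thin filaments of actin slide past thick filaments of myosin when calcium released through the ryanodine receptor binds troponin, and the calcium pump SERCA1 then returns calcium to the sarcoplasmic reticulum. Fast and slow fibres use different isoforms of most of these proteins. Brown adipocytes and skeletal muscle share an early developmental lineage, and the interscapular brown fat pad lies against muscle of the back and shoulders.

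Library totals ranged from 18410748 to 47598200 counts, and mitochondrially encoded genes took 43.4 to 57.3% of them. Ucp1, the uncoupling protein that defines brown fat, stood between 3684 and 7847 CPM (counts scaled to library size with TMM factors) in every library. Noct itself was at 91.5 to 457 CPM in wild-type libraries and at 3.37 to 34.2 CPM in knockout libraries, in the order the labels give.

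The summed level of the 34 genes differed between mice of the same group far more than between groups. In WR it was 1179, 177, 1074 and 84.5 CPM in libraries 1 to 4. In WC it was 109, 807, 1533, 711 and 139 CPM in libraries 1 to 5. In KR it was 139, 448, 812 and 1497 CPM, and in KC 531, 82.6, 2001 and 590 CPM. Each group thus held both low and high libraries and all 4 groups overlapped. The 17 sums left one wide gap, with 6 libraries at 177 CPM or below (2 WR, 2 WC, 1 KR and 1 KC; 4 female, 2 male) and 11 libraries at 448 CPM or above. Group medians were 625.5 CPM in WR, 711 CPM in WC, 630 CPM in KR and 560 CPM in KC. The highest library, KC3, stood 24.2-fold above the lowest, KC2. In total the 34 genes took 0.00784% to 0.167% of a library's counts. In bulk tissue, fewer muscle cells and less RNA per cell cannot be told apart.

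**Figure D1:**
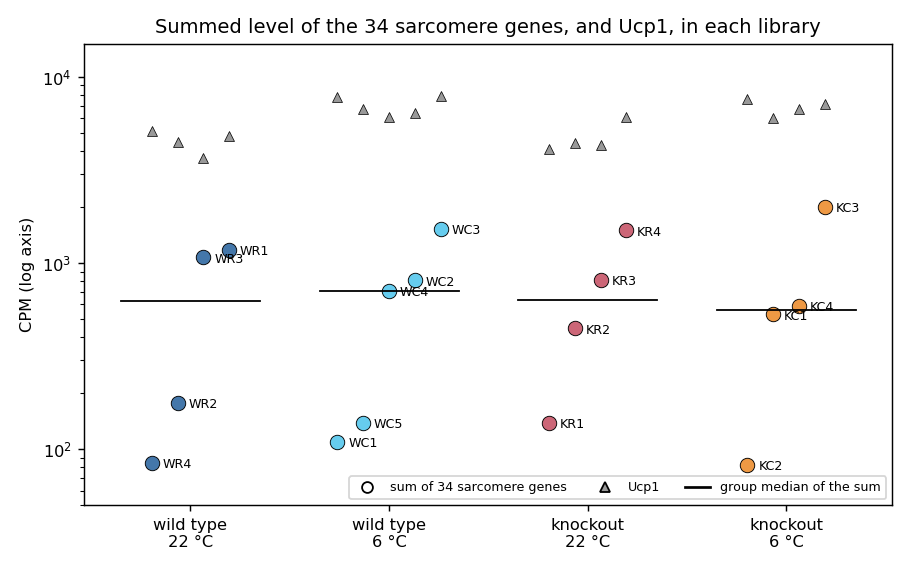
Summed level of the 34 sarcomere genes (circles, library names beside them) and the level of Ucp1 (triangles) in each of the 17 libraries, in CPM on a log axis, by group; black lines are group medians of the sum. The sums run from 82.6 to 2001 CPM and every group spans at least a 10.8-fold range, while Ucp1 stays between 3684 and 7847 CPM.

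The extremes were the same libraries for most genes. KC3 held the highest CPM of 16 of the 34 genes, KR4 of 12, WC3 of 4 and WR1 of 2. KC2 held the lowest CPM of 23 genes, and in that library 13 of the 34 had no count and 22 had 3 counts or fewer. WR4 had 9 genes at 3 counts or fewer. KR4 and KC3 also had the largest mitochondrial shares, 57.3% and 57.0%, and the part of that share in the sarcomere values was not tested; with mitochondrial genes left out of the scaling, KC3 still stood 24.0-fold above KC2.

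The pooled within-group standard deviation (SD) of log2 CPM had a median of 2.48 over the 34 genes, beside 0.251 over all 12486 tested genes. Of the 34 genes, 29 lay above the 99th percentile of that spread and 23 were among the 50 most variable genes in the table. Myh4, the IIb myosin heavy chain of the fastest fibres, had the largest SD of the members (3.51) and ranked 3 among all genes, after the Y-linked Ddx3y and Eif2s3y, which separate males from females. The creatine kinase Ckm (3.27) and skeletal α-actin Acta1 (3.24) followed at ranks 6 and 7. The smallest SDs of the members were those of Myl1 (0.63, percentile 93.4 of all genes), Tpm1 (0.62, percentile 92.8) and Tpm3 (0.19, percentile 27.1).

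**Figure D2:**
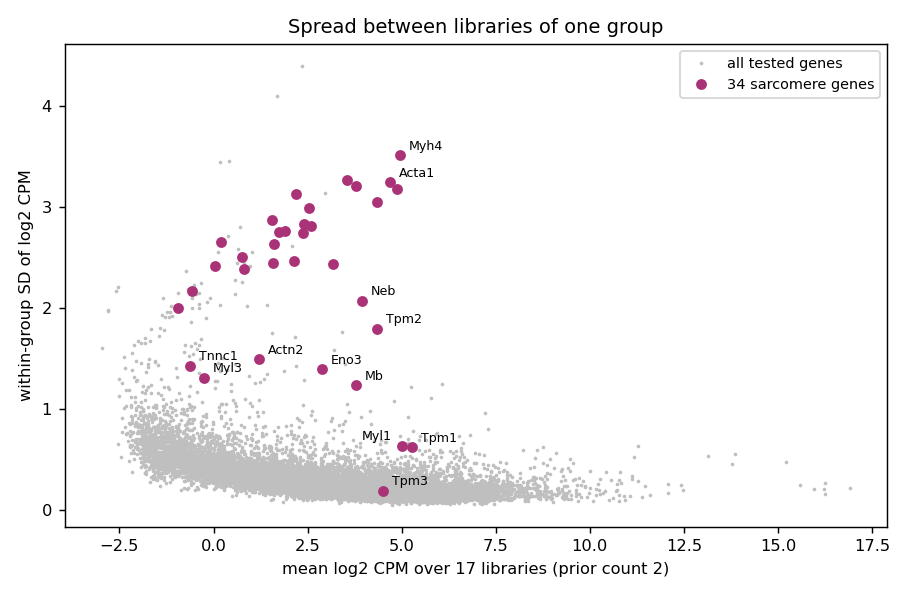
Pooled within-group SD of log2 CPM against mean log2 CPM (prior count 2) for the 12486 tested genes (grey) and the 34 sarcomere genes (purple, some named). Most sarcomere genes lie at an SD above 2 beside a median of 0.251 over all tested genes; Tpm1 (0.62) and Myl1 (0.63) lie lower but above most genes, and Tpm3 (0.19) lies among them.

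The genes rose and fell together from mouse to mouse. After group means were removed, 32 of 34 members correlated at Pearson r of 0.9 or more with the log2 summed level over the 17 libraries, a description in which each member is part of the sum and the libraries share their depth. The exceptions were Myl3 (r = 0.85) and Tpm3 (r = 0.79). Exons of Myl3 (mean 1.00 CPM) overlap those of Pth1r (mean 11.6 CPM) on the other strand, and the strand setting of the counting is not named. The part of this overlap in the Myl3 values was not tested. Among the 12452 tested genes outside the list, 104 reached r of 0.9. The 15 most alike were Pygm, Camk2a, Klhl41, Hrc, Smpx, Myom1, Ampd1, Ppp1r3a, Ldb3, Hfe2, Klhl31, Jsrp1, Hspb6, Pgam2 and Aqp4. Pygm, muscle glycogen phosphorylase, had r = 0.996 and ran from 1.66 CPM in KC2 to 45.0 CPM in KC3. Hrc, a calcium-binding protein of the sarcoplasmic reticulum, ran from 0.039 CPM in KC2 to 8.71 CPM in KC3. Of 39 tested genes on a list of other skeletal muscle genes, 28 were among the 100 most alike; 1 of 4 cardiac genes was (Csrp3, which skeletal muscle also expresses), and none of the tested genes of lists for smooth muscle (10), brown adipocytes (12), all adipocytes (7), white adipocytes (5), tendon (2), nerve and Schwann cells (6), red cells (2), lymphocytes (2), macrophages (8), endothelium (8) or fibroblasts (7). Synpo2, of the smooth muscle list, came just after them at r = 0.90 and is among the 104.

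**Figure D3:**
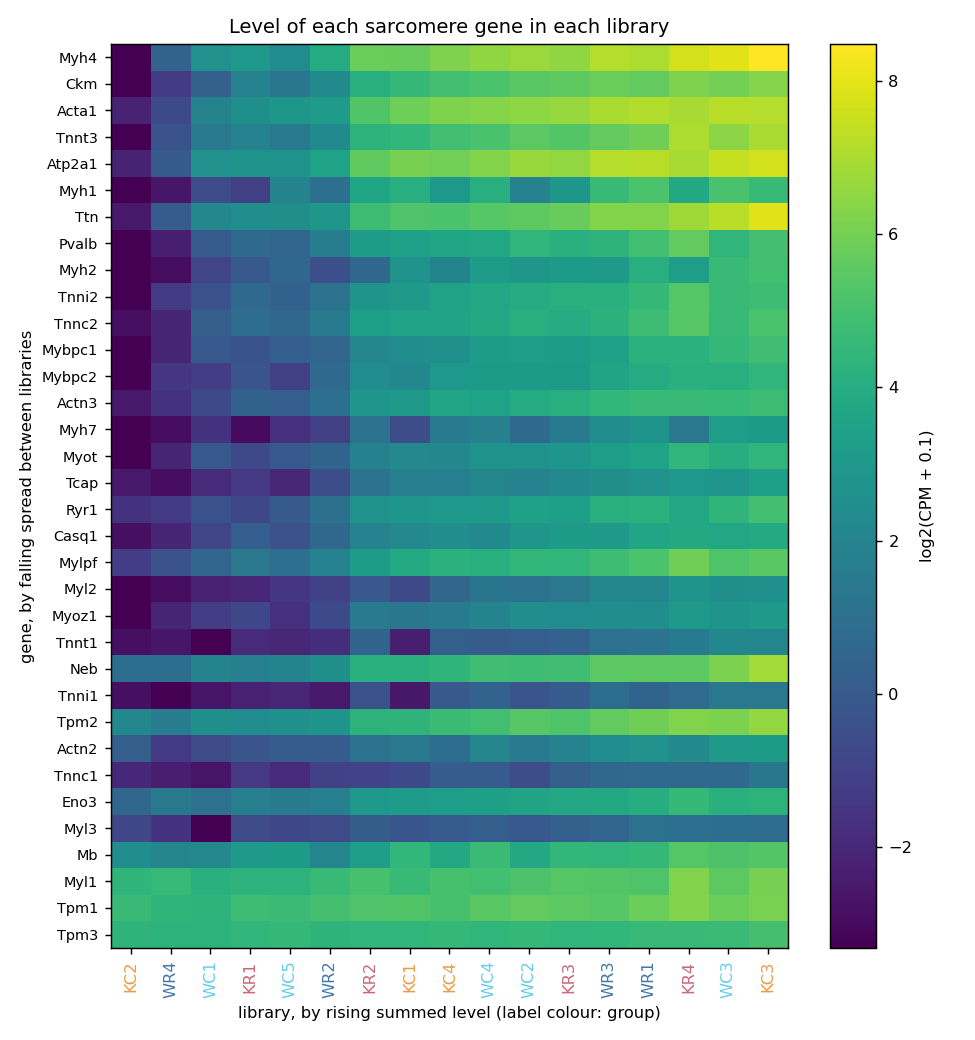
Level of each of the 34 sarcomere genes, as log2(CPM + 0.1), in the 17 libraries ordered by rising summed level, with label colours for WR (dark blue), WC (light blue), KR (red) and KC (orange). Columns brighten from left to right for nearly every gene and the groups are interleaved. At the foot, Myl1 and Tpm1 differ 4.13-fold and 3.78-fold between libraries and Tpm3 only 1.62-fold.

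Marker lists were read to check which kind of muscle these genes stand for. On the list of myogenic regulators and satellite cell genes, Myf5 had no count in any of the 17 libraries, Pax3 and Pax7 at most 1, Myog at most 3 and Myod1 and Cdh15 at most 4, while Megf10, Myf6 and Vgll2 reached 9, 10 and 14 counts. The list's summed level of 166 to 275 CPM was carried by the MEF2 factors Mef2a (mean 99.5 CPM), Mef2d (91.5 CPM) and Mef2c (10.7 CPM), which many tissues express. The embryonic and perinatal myosins Myh3 and Myh8 had at most 2 counts in any library. Of the heart genes, Nppa, Nppb and Myl7 had no count and Myh6 at most 4, although the list's summed level (3.22 to 10.8 CPM over all libraries) was carried mainly by Ryr2 and Myl4; Csrp3 reached 1.44 CPM and Pln 1.29 CPM. The smooth muscle list, which reports on vessels, summed to 78.3 to 167 CPM and so moved little beside the sarcomere genes. Tendon genes summed to 0.425 to 1.20 CPM. The source of this RNA, including whether it came from adjoining muscle, was not tested.

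The sequences before the start sites of these genes were also searched for motifs. RefSeq windows of the 250 bases before the start site (GRCm38.p6) were held for 27 of the 34 genes, as 34 windows. The E-box CAGCTG, the letters bound by muscle basic helix-loop-helix factors, was in 44.1% of these windows and in 13% of all 32851 windows of the same length. The other E-box searched, CAGGTG with its complement CACCTG, was in 23.5% of member windows against 17.2% of all. A MEF2 motif was in 11.8% against 2.92%, a CArG box (the serum response factor motif) in 8.82% against 1.47%, and TATAAA, searched on the gene's strand only, in 11.8% against 7.59%. These last member shares rest on only 4, 3 and 4 windows. All but TATAAA were searched on both strands, and these matches are descriptions of letters, not binding sites. Their part in the differences between libraries was not tested. The windows below were chosen to show 3 genes of large spread and Tpm3, the gene of least spread, which has 2 start sites. Capitals mark the motif matches, and each sequence reads 5′ to 3′ on the gene's strand.
Acta1, chr8:123894776-123895025, minus strand: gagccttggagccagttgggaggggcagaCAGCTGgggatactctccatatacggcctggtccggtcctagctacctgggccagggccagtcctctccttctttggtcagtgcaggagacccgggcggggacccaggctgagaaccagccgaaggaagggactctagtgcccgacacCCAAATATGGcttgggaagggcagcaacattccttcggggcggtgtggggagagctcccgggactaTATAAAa
Ckm, chr7:19410844-19411093, plus strand: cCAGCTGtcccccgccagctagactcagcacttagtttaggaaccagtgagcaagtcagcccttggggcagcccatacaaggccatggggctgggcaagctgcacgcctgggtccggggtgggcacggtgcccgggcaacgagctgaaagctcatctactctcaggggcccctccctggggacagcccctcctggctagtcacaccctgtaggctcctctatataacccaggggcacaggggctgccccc
Myh4, chr11:67237562-67237811, plus strand: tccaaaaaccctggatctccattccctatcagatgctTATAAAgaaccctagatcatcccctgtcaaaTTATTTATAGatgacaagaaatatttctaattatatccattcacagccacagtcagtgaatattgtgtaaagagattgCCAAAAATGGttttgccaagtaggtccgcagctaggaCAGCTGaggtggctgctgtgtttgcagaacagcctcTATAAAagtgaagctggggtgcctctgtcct
Tpm3, first start, chr3:90072401-90072650, plus strand: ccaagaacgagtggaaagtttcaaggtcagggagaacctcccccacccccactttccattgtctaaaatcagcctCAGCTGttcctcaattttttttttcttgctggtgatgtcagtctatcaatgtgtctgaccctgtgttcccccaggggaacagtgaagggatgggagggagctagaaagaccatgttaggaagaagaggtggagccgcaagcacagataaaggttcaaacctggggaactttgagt
Tpm3, second start, chr3:90079271-90079520, plus strand: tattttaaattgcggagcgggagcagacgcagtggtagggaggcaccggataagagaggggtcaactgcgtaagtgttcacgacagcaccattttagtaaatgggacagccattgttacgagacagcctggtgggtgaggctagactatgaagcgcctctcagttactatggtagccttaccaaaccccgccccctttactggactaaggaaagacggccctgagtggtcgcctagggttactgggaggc
Acta1 holds an E-box, a CArG box and a TATA motif, and Myh4 holds all 3 with a MEF2 motif and a second TATA motif. Ckm, also of large spread, holds 1 E-box and none of the other motifs searched. The first Tpm3 window has 1 E-box and the second has none of the motifs searched.

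Thin filament genes are led by Acta1 (chromosome 8, 123891769 to 123894751, GRCm38), the actin of adult skeletal muscle, which had the highest mean of the 34 genes per length (43.4 RPKM, read counts scaled by gene length and library total). Its levels were 138, 9.19, 128 and 0.526 CPM in WR and 3.80, 88.8, 151, 81.8 and 7.61 CPM in WC. In the knockouts they were 5.83, 38.9, 101 and 124 CPM in KR and 58.0, 0.116, 145 and 73.6 CPM in KC. Low and high libraries occur in every group, and the groups overlap. KC2 had 3 counts of Acta1, so the highest library, WC3, stood 1304-fold above it with a 95% counting interval of 446 to 6323. The fitted cold response of Acta1 was −0.13 log2 (95% interval −2.76 to 2.50) in wild type and 0.12 (−2.65 to 2.89) in knockout.

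The troponins and tropomyosins sit on the thin filament and make its response to calcium. The fast isoforms were the most abundant: Tnnt3 (troponin T) had a mean of 23.3 RPKM, Tnnc2 (troponin C) 16.8 RPKM and Tnni2 (troponin I) 8.08 RPKM. Their slow partners were lower, with means of 0.56 RPKM for Tnnt1, 0.786 RPKM for Tnnc1 and 0.234 RPKM for Tnni1. Nebulin (Neb), the ruler of the thin filament, ran from 1.82 CPM in KC2 to 116 CPM in KC3. Tpm2 ran from 3.15 CPM in WR4 to 96.1 CPM in KC3.

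Tpm3 (chromosome 3, 90072649 to 90100902), the slow-fibre tropomyosin gene, also makes cytoskeletal tropomyosins in many cell types. Its levels were 25.3, 20.3, 22.4 and 19.9 CPM in WR and 20.1, 23.4, 26.3, 21.8 and 23.0 CPM in WC. They were 21.7, 21.7, 21.8 and 25.5 CPM in KR and 21.8, 20.1, 32.3 and 23.1 CPM in KC. All libraries are close, and the highest, KC3, was 1.62-fold above the lowest, WR4 (counting interval 1.5 to 1.76). The fitted cold response of Tpm3 was 0.06 log2 (−0.21 to 0.33) in wild type and 0.10 (−0.19 to 0.39) in knockout, the narrowest intervals of the 34 genes. With Myl1, Tpm1, Tpm2, Neb, Mb and Eno3 it was one of 7 members at 1 CPM or more in every library. The other 27 members fell below 1 CPM somewhere, and their sum alone differed 538-fold between KC3 and KC2.

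Thick filament genes were led per length by Mylpf (chromosome 7, 127208890 to 127214298), the regulatory light chain of fast myosin, at a mean of 17.2 RPKM. Mylpf stood at 35.1, 3.71, 28.0 and 0.723 CPM in WR and at 1.36, 22.8, 37.7, 17.5 and 1.88 CPM in WC. It stood at 2.50, 9.14, 21.6 and 61.4 CPM in KR and at 14.8, 0.348, 44.5 and 18.9 CPM in KC. The libraries low in Acta1 were again low, and the groups overlapped. The essential light chain Myl1 had nearly the same mean (16.4 RPKM) but ran only from 18.2 CPM in WC1 to 75.1 CPM in KR4. Titin (Ttn), the elastic filament anchored at the Z-disc, ran from 0.077 CPM in KC2, 2 counts, to 251 CPM in KC3.

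The 4 adult myosin heavy chains report the fibre types. Myh4 (chromosome 11, 67238029 to 67260446) was at 131, 15.5, 146 and 1.22 CPM in WR and at 6.12, 106, 245, 93.4 and 5.06 CPM in WC. It was at 7.87, 55.8, 92.9 and 204 CPM in KR and at 53.1, 0, 359 and 73.9 CPM in KC. KC3 was at least 3093-fold above KC2, where 3 counts of that library served as the limit. Myh1 (IIx fibres; chromosome 11, 67200052 to 67224575) was at 35.6, 1.87, 25.6 and 0.066 CPM in WR and at 0.567, 3.69, 34.2, 16.9 and 3.85 CPM in WC. It was at 0.373, 12.5, 7.45 and 13.9 CPM in KR and at 16.6, 0, 26.0 and 7.68 CPM in KC. For both chains the groups overlapped, and WC5 was low in Myh4 but not among the lowest in Myh1.

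Myh2 (IIa fibres; chromosome 11, 67171027 to 67197517) was at 17.6, 0.635, 8.35 and 0.033 CPM in WR and at 0.453, 7.41, 24.7, 8.75 and 1.45 CPM in WC. It was at 0.89, 1.48, 8.63 and 9.49 CPM in KR and at 6.38, 0, 30.5 and 3.91 CPM in KC. Myh7 (slow type I fibres; chromosome 14, 54970684 to 54994626) was at 6.82, 0.365, 5.44 and 0.033 CPM in WR and at 0.227, 1.61, 9.31, 3.38 and 0.202 CPM in WC. It was at 0.029, 2.02, 2.83 and 2.58 CPM in KR and at 0.601, 0, 8.49 and 2.79 CPM in KC. In the 6 libraries lowest in Acta1, Myh2 was at most 1.45 CPM and Myh7 at most 0.365 CPM, and the groups overlapped for both. Myh1, Myh2 and Myh4 are adjacent, closely related paralogs, so reads shared between them could be split or dropped in counting.

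Per length, Myh4 was the main heavy chain in each of the 14 libraries with at least 200 counts of the 4 genes. Its share of their summed RPKM had a median of 82.9% and ran from 50.3% in WC5 to 90.7% in WC2. Myh1 had a median share of 10.2% (2.98% in WC2 to 36.2% in WC5), Myh2 of 6.19% (1.77% in KR2 to 12.1% in WC5) and Myh7 of 1.62% (0.224% in KR1 to 2.59% in WR1). In KR1 the 4 genes had only 319 counts together, 1 of them of Myh7. Fast myosin transcripts thus led in each of these libraries, with WC5 richest in Myh1 and Myh2 on only 365 counts. Shares of the fibres themselves were not measured. The slow isoform also took a small part of the troponins and of the regulatory light chains. Over the libraries deep enough to read, Tnnt1 was 0.314% (KC1) to 4.45% (KR2) of troponin T, Tnni1 0.333% (KC1) to 4.03% (WR3) of the Tnni1 and Tnni2 sum, Tnnc1 2.57% (WC2) to 6.19% (KC4) of Tnnc1 and Tnnc2, and Myl2 1.81% (KC1) to 7.81% (WR3) of Myl2 and Mylpf. The myosin-binding proteins differed from these pairs: the slow Mybpc1 was 38.8% (KC4) to 52.2% (KC3) of Mybpc1 and Mybpc2, with a median of 46.1%. KC1 was lowest in the Tnnt1, Tnni1 and Myl2 shares, but not in those of Tnnc1 (3.56% in KC1) or Mybpc1 (49.9%). The share of Myh7 in Myh7 and Myh4 was 0.787% in KC1 and 0.88% in KR4, and lowest in KR1 at 0.255%. That KR1 value rests on 1 count of Myh7 against 274 of Myh4. Its exact binomial interval of 0.006% to 1.42% covers the KC1 value. For Tnnt1 the 3 counts in KC1 against 683 of Tnnt3 give an exact binomial interval of 0.065% to 0.917%, which covers counting error only. For Tnni1 in KC1, 2 counts against 249 of Tnni2 give 0.04% to 1.2% in the same way.

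**Figure D4:**
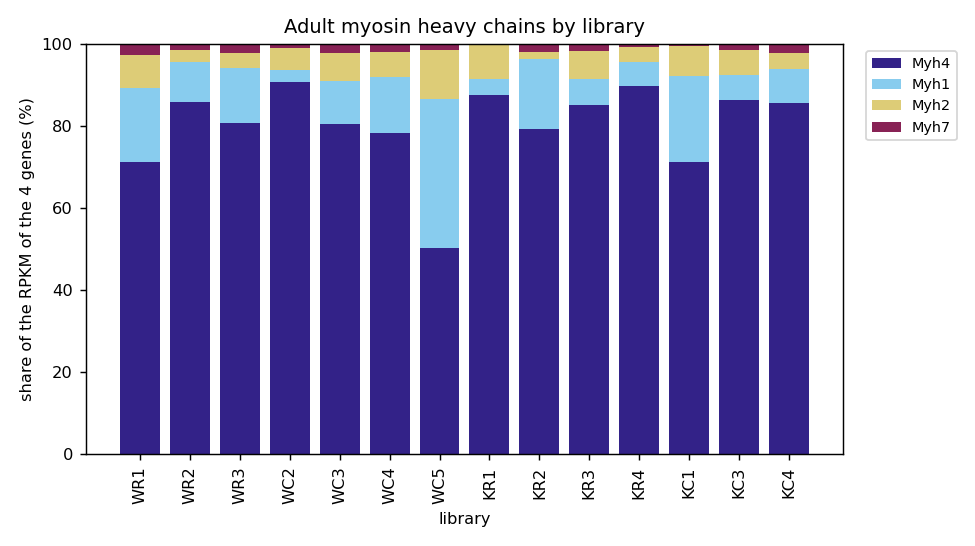
Share of each adult myosin heavy chain in the summed RPKM of the 4 genes, in the 14 libraries with at least 200 counts of them; bars are stacked to 100%. Myh4 fills 50.3 to 90.7% of each bar, and WC5 has the largest Myh1 part at 36.2%.

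Z-disc genes anchor the thin filaments. Actn3 (chromosome 19, 4861216 to 4877909), the α-actinin of fast fibres, was at 24.9, 1.90, 22.6 and 0.23 CPM in WR and at 0.51, 15.5, 24.0, 11.3 and 1.07 CPM in WC. It was at 1.18, 7.28, 16.7 and 25.6 CPM in KR and at 8.15, 0.077, 27.0 and 12 CPM in KC. The 6 libraries lowest in Acta1 had at most 1.90 CPM of Actn3 and the other 11 at least 7.28 CPM. In the 11 libraries with at least 1000 counts of Acta1, the ratio of Actn3 to Acta1 per length varied 1.5-fold, the least of the 33 other members, while Actn3 itself varied 3.71-fold. The median member varied 2.48-fold against Acta1, and the widest were the slow troponins Tnnt1 (19.1-fold) and Tnni1 (15.0-fold), both lowest in KC1. KC1 had only 3 counts of Tnnt1 and 2 of Tnni1, so both of these folds rest on very few counts. The remaining Z-disc members Actn2, Myoz1, Myot and Tcap had means of 0.827 to 3.57 RPKM.

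Calcium handling genes were led by Atp2a1 (chromosome 7, 126445858 to 126463108), which encodes SERCA1. It was at 148, 11.3, 145 and 0.92 CPM in WR and at 6.23, 101, 175, 78.2 and 6.36 CPM in WC. It was at 6.49, 48.1, 95.5 and 125 CPM in KR and at 67.0, 0.116, 206 and 61.9 CPM in KC. The groups overlapped, with KC2 at 3 counts. SERCA1 exons overlap those of Rabep2 on the other strand, and no source names the strand setting of the counting; Rabep2 itself had a mean of 2.79 CPM. Parvalbumin (Pvalb), the calcium buffer of fast fibres, ran from no count in KC2 to 49.8 CPM in KR4, the ryanodine receptor Ryr1 from 0.232 CPM in KC2 to 31.3 CPM in KC3, and calsequestrin Casq1 from 0.039 CPM in KC2 to 14.8 CPM in KC3.

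Energy and oxygen genes were led by Mb (chromosome 15, 77015487 to 77050670), which encodes myoglobin, the oxygen store of oxidative fibres. Mb was at 23.5, 4.02, 21.9 and 4.07 CPM in WR and at 4.65, 14.1, 36.6, 26.2 and 8.42 CPM in WC. It was at 8.21, 9.59, 22.5 and 41.4 CPM in KR and at 22.8, 5.49, 39.8 and 13.7 CPM in KC. Its highest library, KR4, was 10.3-fold above its lowest, WR2, a wider range than those of Myl1 (4.13-fold), Tpm1 (3.78-fold) and Tpm3 (1.62-fold) and narrower than those of the other filament genes, and the groups overlapped. KC2, with 0 counts for Myh4 and for Ckm, still held 5.49 CPM of Mb. Exons of Mb overlap those of Apol6 on the other strand (mean 15.3 CPM). Ckm ran from no count in KC2 to 80.5 CPM in KC3, and Eno3, the muscle enolase, from 1.39 CPM in KC2 to 23.2 CPM in KR4.

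The study asks how cold and the loss of Nocturnin change BAT. None of the 34 genes changed with cold in wild type by edgeR's quasi-likelihood test over all tested genes with sex in the model (adjusted p of 0.662 or more), in a comparison in which 27.6% of all tested genes passed the threshold of 0.05. None changed with cold in knockout (adjusted p of 0.643 or more), where 21.6% of all genes passed. None differed between genotypes at 22 °C (adjusted p of 0.9975 or more by edgeR, 0.016% of all genes passed), at 6 °C (adjusted p of 0.9991 or more, 0.04% passed) or in the difference between the cold responses (adjusted p of 0.9997 or more, 0.00801% passed). In each of these 5 comparisons, 0 of 34 had an unadjusted p under 0.05 in edgeR, and the same held with DESeq2's Wald test and with limma on log2 RPKM. No member's groups were free of overlap in CPM in any of the 4 pairs of groups, beside 25.8%, 20.2%, 4.22% and 1.04% of all tested genes in the same order.

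The medians over the 34 genes were −0.07 log2 for cold in wild type, 0.04 for cold in knockout, −0.24 for genotype at 22 °C, −0.07 for genotype at 6 °C and 0.08 for the difference of the cold responses, beside medians over all genes between −0.03 and 0. These medians are not stable: leaving out single libraries moved that of the wild-type cold response between −0.91 and 0.56 and that of the knockout cold response between −0.89, without KC3, and 0.70. Without KC2 the knockout median was 0.47 and the lowest adjusted p 0.359, by the same edgeR test. The median standard error of a member was 1.11 log2 for cold in wild type, beside 0.165 for all genes, and the median 95% interval reached 2.34 log2 to either side. Myh4 was fitted at 0.19 log2 (−2.57 to 2.96) in wild type and at 0.52 (−2.39 to 3.43) in knockout. Myh2 had the largest fitted cold response in knockout, 1.01 log2 (−1.66 to 3.68; adjusted p = 0.643 by edgeR), and Mb in wild type, 0.46 (−0.98 to 1.89; adjusted p = 0.662 by edgeR). For genotype at 22 °C the extremes were Myh7 at −1.12 log2 (−3.99 to 1.74) and Mb at 0.84 (−0.78 to 2.46). Changes of several-fold in either direction lie inside most of these intervals.

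**Figure D5:**
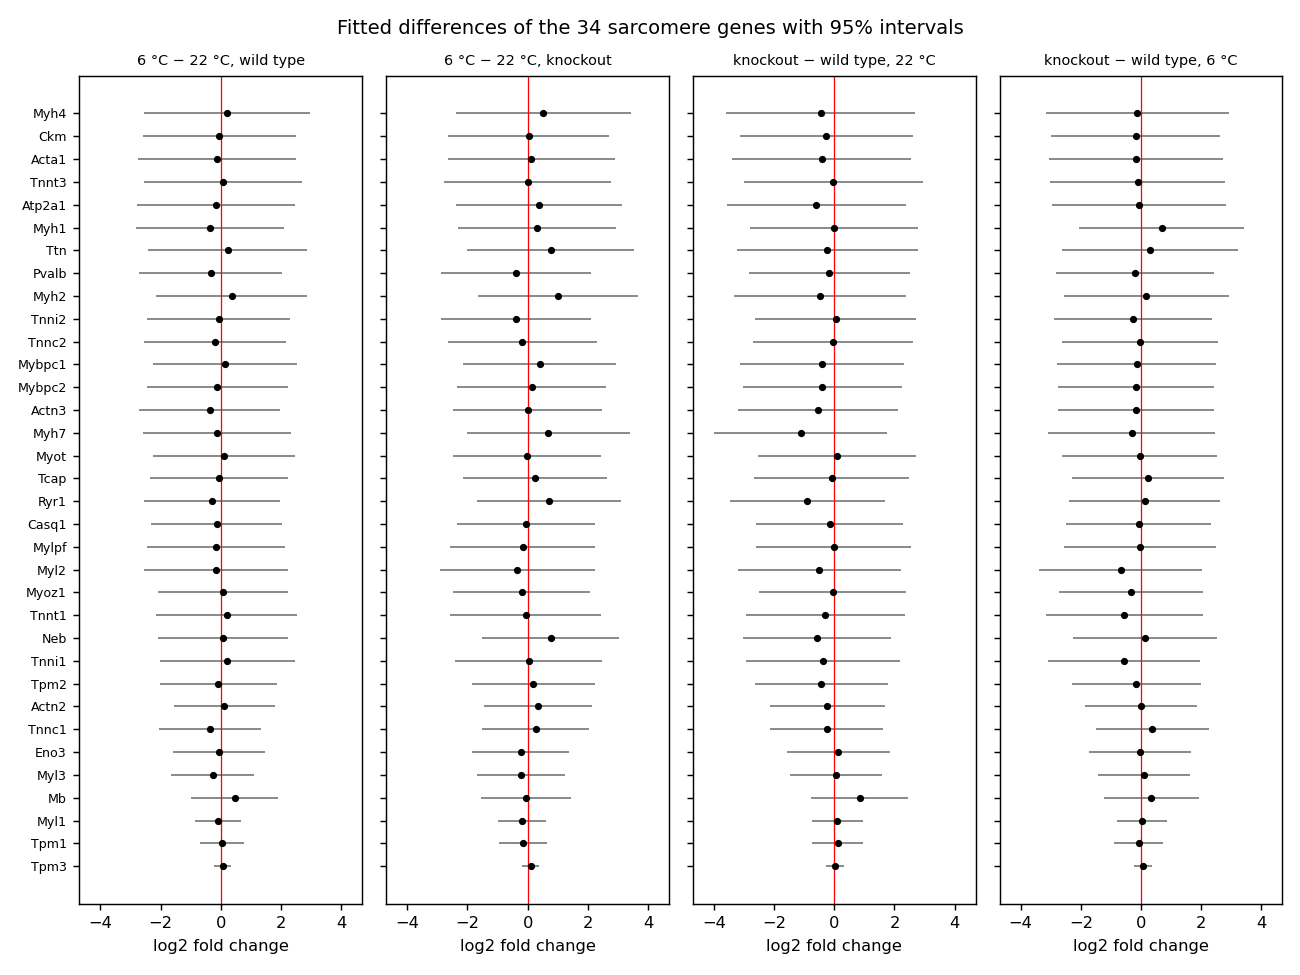
Fitted log2 fold change of each of the 34 sarcomere genes with its 95% interval (bars) for cold in wild type, cold in knockout, knockout against wild type at 22 °C and the same at 6 °C; genes are ordered by falling spread and red lines mark no change. Every interval includes 0, and Tpm3, at the foot, has the narrowest.

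Sex was additive in the fit and also gave no call: 0 of 34 genes differed between males and females (adjusted p of 0.9983 or more by edgeR; 0.0641% of all genes passed), although 32 of 34 fitted differences were above 0 (male higher), with a median of 0.53 log2. The 34 genes moved together from mouse to mouse, so these signs do not count as 34 separate observations. Leaving out single libraries moved the median between −0.18, without KR1, and 1.34. Myh1 was the lowest, at −0.96 log2 (−3.06 to 1.14).

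Changes were also read in other muscle genes outside the list. Of all tested genes, 27.6% passed for cold in wild type and 21.6% in knockout, in either direction. Of the 39 tested other skeletal muscle genes, 1 rose with cold in wild type and 2 in knockout and none fell. The 1 gene in wild type was Actn1, the α-actinin of non-muscle cells, which rose by 0.50 log2 ± 0.15 (SE; adjusted p = 0.0199, edgeR); in knockout it rose by 0.89 ± 0.16 (adjusted p = 0.00096, edgeR), together with Dysf, the membrane repair protein dysferlin (0.47 ± 0.16; adjusted p = 0.0412, edgeR). Their r with the summed level of the sarcomere genes was 0.02 each. The median of the list was −0.09 log2 in wild type and 0.13 in knockout. Of 3 tested myogenic regulators, Mef2d rose with cold in knockout (0.71 ± 0.14; adjusted p = 0.0022, edgeR), and none passed in wild type. Of the 4 tested cardiac genes, Myl4 rose in both genotypes (1.37 ± 0.25 in wild type, 1.34 ± 0.27 in knockout), and Pln, the SERCA inhibitor phospholamban, fell in knockout (by 1.88 ± 0.44). Of the 10 tested smooth muscle genes, 1 rose with cold in each genotype and none fell. None of the 39 skeletal muscle genes differed between genotypes at either temperature, beside 0.016% and 0.04% of all genes (22 and 6 °C). When the log2 summed level of the 34 genes was added to the model, 3543 genes outside the list passed for cold in wild type, beside 3450 without it, and 2775 beside 2697 in knockout.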

How the data were processed

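RNA was extracted from BAT with Trizol, and mRNA-seq libraries were made, per the labels' protocols; STAR and HTSeq and the builds mm10 and GRCm38.p6 are named in the submitters' processing notes, with no version, and strand settings are not given in the sources used here. The authors deposited whole-number counts per gene and RPKM; each deposited RPKM equals the count over the library total and 1 gene length (9938 genes compared, largest relative spread 9.71e-15). Counts were scaled by TMM and fitted in edgeR 4.0.16 (R 4.3.3) with 4 group means and labelled sex on all 17 libraries (12 residual degrees of freedom), after filterByExpr; p-values were adjusted by Benjamini and Hochberg over the 12486 genes left, at 0.05. The fit was tried on simulated counts drawn with the spread typical of genes at each level. That simulation did not use the larger spread of the sarcomere genes, so it does not show how the fit treats them. CPM are TMM-scaled; log2 CPM use a prior count of 2. Standard errors and 95% intervals come from the quasi-likelihood fit. A fold against 0 uses 3 counts in that library; intervals for counts cover counting error only. Ratios and shares between genes use RPKM. Likeness is Pearson r of deviations from group means.

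The genes given in every library were, by rule, the highest mean RPKM in each role class, the 4 adult myosin heavy chains, the most abundant slow-fibre gene, any gene past the threshold, and the largest and smallest spread. Ckm, Ttn and other genes given by their range were chosen after their values were seen. Members and lists were chosen with earlier results of these data known. Positions are from GENCODE vM21 and promoters from RefSeq, both on GRCm38; 7 members had no promoter entry: Tnnt3, Myot, Myoz1, Neb, Tnni2, Actn3 and Tcap. Replicates are separate mice by the study design. No 2 libraries of a group agreed within sampling noise (lowest chi-square per gene 22.3). Alternatives were DESeq2 1.42.0 (Wald test and size factors), limma 3.58.1 (trend fits of log2 RPKM), other filters and covariates, and leaving out each library.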

Additional observations from a re-analysis of the deposited data

Results flagged for a closer look

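Of 140 tested sets (each gene and the summed level in each group), 5 had a library far from the others of its group. The rule gives about 1 in 20 for separate, normally distributed values. These sets are correlated, so that rate does not apply to them. Titin (Ttn) was at 251 CPM in KC3, where the next KC library had 37.0 CPM, and at 154 CPM in WC3, where the next WC library had 46.8 CPM. Nebulin (Neb) was at 116 CPM in KC3 against 21.1 CPM in the next KC library. Slow troponin T (Tnnt1) was at 4.42 CPM in WC3 against 1.05 CPM in the next WC library. Tpm3 was at 25.5 CPM in KR4 against 21.8 CPM in the next KR library. In each case the library was the highest of its group in summed level.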

How the results depend on the processing

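No sarcomere gene passed in any of 177 combinations of setting and comparison; the lowest adjusted p was 0.298 (edgeR, knockout cold response without KC3). Of 1770 recomputed values of single genes, all stayed on their side of the threshold and 289, not called in either fit, changed sign. Same-numbered libraries did not pair (correlation of deviations −0.42 to 0.44, over 0.1 in 6 of 16 pairs); with the replicate number as a block, medians of the sarcomere genes turned to 0.71 log2 for cold in wild type (−0.07 without it) and −0.50 for cold in knockout (0.04 without it), and were −0.54 for genotype at 22 °C, −1.94 for genotype at 6 °C, −1.33 for the difference of the cold responses (0.08 without it) and 2.14 for sex, with no call. With limma on log2(RPKM + 1), 22.05% of the genes called for cold in wild type were higher, against 51.77% in the main fit, and 41.28% against 53.62% in knockout. The highest library stood 511-fold above the lowest in the median of scaled members, against 24.2-fold for the sum.

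Counts of all genes called moved by over 1.5 times in these cases. For cold in knockout, 1589 passed with only the compared groups, against 2697. For genotype at 22 °C (2 genes), DESeq2 gave 10, the robust fit 1, no sex term 4, the replicate block 0, only the compared groups 0, and each limma fit 4; without 1 library, 1 to 3. For genotype at 6 °C (5 genes), DESeq2 gave 12, sex with age 3, only the compared groups 3, limma on log2(RPKM + 1) 3 and without a filter 2; without 1 library, 3 to 5. For sex (8 genes), DESeq2 gave 43, sex with age 14, the replicate block 1 and limma without a filter 5; without 1 library, 4 to 14.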

Other observations

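Across the 11 libraries rich in Acta1, KC3 and KR4, the 2 with the largest mitochondrial shares, differed in which genes stood highest against Acta1 per length, a pattern chosen after the values were seen. The ratio was highest in KC3 for 12 of the other 33 genes, among them Ttn, Neb, Ryr1, Myh2, Myh4 and Mybpc1, with a median gene length of 4161 bases. It was highest in KR4 for 10 genes, among them Mylpf, Tnnt3, Tnni2, Tnnc2, Pvalb and Casq1, with a median length of 1767 bases (800 to 2913). Tnnc1 and Tcap, at 1041 and 948 bases, were highest in KC3 all the same. In KR2, with the lowest summed level of the 11 libraries, the ratio was highest for 9 genes, among them Tpm1, Tpm3, Myl1, Myl3 and Eno3.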
